A study of Homo sapiens with 24 samples.

Results

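Cholesterol synthesis and handling genes were followed across 3 human triple-negative breast cancer cell lines by bulk RNA-seq of polyadenylated RNA. The genes are ACAT2, HMGCS1, FDPS, FDFT1, SQLE, LSS, INSIG1 and STARD4, 8 of the 58735 entries of each count file, found by symbol. They were chosen with earlier results of these data known. The libraries fall into 8 groups of 3, with replicates A, B and C. HCC38 and HCC1937 cells were given EZH2i+AKTi or DMSO vehicle, and HCC1395 cells were given EZH2i+AKTi, AKTi alone, EZH2i alone or DMSO. EZH2i is 5 µM tazemetostat, which blocks the histone methyltransferase EZH2, and AKTi is 5 µM ipatasertib, which blocks the AKT kinases. The time from treatment to harvest of these 3 lines cannot be read from the labels, which give a schedule for another line only. No label says that the replicates were separate cultures, so p-values measure the spread between these libraries, which may be technical.

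In HCC1395, all 8 genes were lower with AKTi than with DMSO, from ACAT2 at 0.445 of its DMSO level to SQLE at 0.774. EZH2i alone lowered 5 of them by at most 0.34 on the log2 scale and raised STARD4 1.83-fold. The combination left the 7 genes other than STARD4 between 0.426 and 0.733 of their DMSO levels. In HCC38 the same combination raised STARD4 3.06-fold, INSIG1 1.46-fold and SQLE 1.26-fold, and lowered LSS to 0.755 of its DMSO level. In HCC1937 it lowered HMGCS1 and INSIG1 and raised FDPS and FDFT1, each by less than 0.5 on the log2 scale. Leaving out some single libraries lost the calls of SQLE and LSS in HCC38, and of FDPS and FDFT1 in HCC1937.

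Cells make cholesterol from acetyl-CoA in a long chain of enzymes. ACAT2 is the cytosolic thiolase that joins acetyl-CoA units, HMGCS1 makes HMG-CoA from the product, and FDPS makes farnesyl diphosphate, the branch point to sterols and to protein prenylation. FDFT1, squalene synthase, takes the first step that leads to sterols alone, SQLE adds an oxygen to squalene, and LSS closes the ring to lanosterol. When sterols are short, SCAP carries the transcription factor SREBP-2 to the Golgi for cleavage, and SREBP-2 then raises transcription of most genes of the chain. INSIG1 holds SCAP back in the endoplasmic reticulum and is itself an SREBP target, and STARD4 carries sterol between membranes in the cytosol. AKT signalling is known as an activator of SREBP processing. No lipoprotein receptor is among the 8 genes, so uptake is represented here by the other genes listed further on.

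The bases before the start of 3 of the 8 genes are shown because these genes stood at the extremes of the results: STARD4 moved apart from the enzymes, FDPS was among the most lowered by AKTi, and INSIG1 differed most between lines. Each run is the 250 bases before the RefSeq start on GRCh38.p14, written 5′ to 3′ on the strand of the gene. Capitals mark the NF-Y box CCAAT and the Sp1 box GGGCGG on either strand, with overlapping matches run together.
STARD4 (chr5:111512536-111512785, minus strand): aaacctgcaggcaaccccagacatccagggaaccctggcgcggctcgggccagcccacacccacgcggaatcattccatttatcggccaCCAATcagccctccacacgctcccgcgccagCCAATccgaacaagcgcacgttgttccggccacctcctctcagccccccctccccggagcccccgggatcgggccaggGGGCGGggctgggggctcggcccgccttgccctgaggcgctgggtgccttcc
FDPS (chr1:155308616-155308865, plus strand): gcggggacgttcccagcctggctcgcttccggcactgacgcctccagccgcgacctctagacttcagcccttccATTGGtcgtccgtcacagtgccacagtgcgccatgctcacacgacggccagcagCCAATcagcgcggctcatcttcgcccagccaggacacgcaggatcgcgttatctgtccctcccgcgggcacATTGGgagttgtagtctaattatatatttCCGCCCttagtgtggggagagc
INSIG1 (chr7:155297628-155297877, plus strand): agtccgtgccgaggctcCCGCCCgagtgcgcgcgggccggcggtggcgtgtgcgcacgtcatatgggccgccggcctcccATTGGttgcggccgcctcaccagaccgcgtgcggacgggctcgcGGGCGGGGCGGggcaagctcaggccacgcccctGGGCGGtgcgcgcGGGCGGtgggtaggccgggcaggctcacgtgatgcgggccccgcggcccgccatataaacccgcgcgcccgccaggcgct
NF-Y and Sp1 are general promoter factors that bind beside SREBP at sterol-regulated genes. In these runs the NF-Y box occurred 2 times for STARD4, 3 times for FDPS and 1 time for INSIG1, and the Sp1 box 1, 1 and 5 times.

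RefSeq windows from 250 bases before to 50 bases after the start were searched for 5 of the 8 genes. The genes searched were HMGCS1, FDPS, LSS, INSIG1 and STARD4. FDFT1 and SQLE, both on chr8, were left out of the search, and no window was matched for ACAT2. Each of the 5 genes had a window with CCAAT and a window with GGGCGG. Of all 35116 windows in the reference, 34.6% held CCAAT and 45.0% held GGGCGG. These shares count windows, while the 5 genes had 6 windows in all. The HMGCS1 window at chr5:43313132-43313431 held no CCAAT. The sterol regulatory element core TCACNCCAC, found in 1.13% of all windows, and the forkhead site GTAAACA, found in 3.42%, were spelled in none of the 5 genes' windows. Both strands were searched for each motif, which was counted apart from the others, overlaps included. A match is a description of the letters, and its absence says nothing of the factor.

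All 8 are protein-coding genes of the GENCODE annotation on hg38. HMGCS1 spans chr5:43289395-43313512, STARD4 chr5:111496033-111512590 and LSS chr21:46188141-46228824, all on the minus strand. FDPS spans chr1:155308748-155320666, ACAT2 chr6:159760328-159779055 and INSIG1 chr7:155297776-155310235 on the plus strand. FDFT1 spans chr8:11795573-11839309 and SQLE chr8:124998497-125022283, also on the plus strand. Whether counting used the strand is not given in the sources used here. ACAT2 has 397 exon bases within the span of TCP1, a chaperonin subunit gene, and 1850 within that of SOD2, the mitochondrial superoxide dismutase gene. Both lie on the opposite strand, and how many of these bases fall in their exons was not counted. Counts of TCP1 were 176 to 693% of those of ACAT2 across libraries, and counts of SOD2 were 52.5 to 365%, so a part of the ACAT2 count may not be its own. STARD4-AS1, antisense to STARD4, had 0.312 to 11.4% of the counts of STARD4, and the antisense genes of HMGCS1, FDPS, FDFT1 and LSS had at most 3.4%. The 8 annotated FDPS pseudogenes summed to 0.019 to 0.528% of the counts of FDPS.

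Libraries held 33469927 to 51815656 gene counts, and levels are given as CPM, counts scaled to a common library size. The mitochondrial share was 6.14 to 6.3% with EZH2i+AKTi, 5.34 to 5.72% with AKTi and 4.49 to 5.19% with EZH2i in HCC1395, against 3.77 to 3.92% with DMSO. It was 6.72 to 8.54% with EZH2i+AKTi against 4.81 to 6.37% with DMSO in HCC1937, and 4.76 to 7.77% against 5.08 to 5.82% in HCC38, where EZH2i+AKTi replicate C held the 7.77%. The part of this share in the results was not tested. HCC38 and HCC1937 expressed breast epithelial markers, with 9 such genes summing to 2633 to 3640 CPM in HCC38 and 5148 to 6650 in HCC1937. Of these 9, the keratin genes KRT14 in HCC38 and KRT6B in HCC1937 stayed under 1 CPM in every library. HCC1395 summed to 535.1 to 975.2 CPM, and in its DMSO libraries the epithelial adhesion gene CDH1 averaged 0.347 CPM and EPCAM 1.75 CPM, while basal keratin KRT14 averaged 431 CPM and the stromal collagen gene COL1A2 averaged 733 CPM. CDH1 and EPCAM were thus near absent from HCC1395 under DMSO. Of the 7 stromal and endothelial genes, DCN, LUM and PDGFRB stayed under 1 CPM in every HCC1395 library, and the list without COL1A2 summed to at most 97.95 CPM there. The 7 leukocyte genes summed to 4.04 to 11.0 CPM in HCC38, 2.39 to 5.77 CPM in HCC1937 and 3.98 to 7.15 CPM in HCC1395. MS4A1, CD79A and CD3E stayed under 1 CPM in every library of all 3 lines, while CD79B averaged 4.33 CPM in HCC1395 under DMSO and CD14 averaged 8.82 CPM in HCC38 under DMSO. PGR, the progesterone receptor gene, stayed under 1 CPM in every library. ESR1, the estrogen receptor gene, stayed under 1 CPM in every library of HCC1395 but not of HCC38 or HCC1937. With ERBB2, the HER2 gene, these 3 genes summed to 113.9 to 165.7 CPM in HCC38, 199.3 to 252.7 in HCC1937 and 43.92 to 67.19 in HCC1395. With EZH2i+AKTi against DMSO, 1 of the 8 epithelial genes tested in HCC38 was called higher and 4 lower. Of the 9 tested in the other lines, 0 were higher and 7 lower in HCC1937, and 6 higher and 1 lower in HCC1395. Of the stromal and endothelial genes tested, 2 of 2 were higher in HCC38, 4 of 5 higher and 1 lower in HCC1937, and 1 of 6 higher and 1 lower in HCC1395. Over all genes tested, 16.8% were called higher and 14.5% lower in HCC38, 30.5% and 28.8% in HCC1937, and 32.5% and 27.4% in HCC1395. The part of these markers in the results was not tested.

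AKTi against DMSO in HCC1395 asked what AKT inhibition alone did to the pathway. All 8 genes were lower in every AKTi library than in any DMSO library, and all 8 passed edgeR's quasi-likelihood test at an adjusted p of 0.05, where 22.6% of the 18074 genes tested were called lower. Their median log2 change was -0.61, against 0.06 over all genes tested. Overlap of libraries was not counted over all genes, here or in the comparisons below, so the shares given are of called genes only.

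The early enzymes fell the furthest. ACAT2 had 61.7, 66.1 and 62.6 CPM with AKTi, against 144, 138 and 144 CPM with DMSO. Its log2 change was -1.17 ± 0.05 (SE, n = 3 in each group here and below; adjusted p = 1.12e-13, edgeR). TCP1, which overlaps ACAT2, fell by 0.44 (adjusted p = 1.09e-07, edgeR) and SOD2 changed by 0.09 (adjusted p = 0.119, edgeR), and the part of either in the ACAT2 value was not tested. FDPS had 92.7, 92.1 and 88.4 CPM with AKTi, against 195, 184 and 199 CPM with DMSO, a log2 change of -1.09 ± 0.05 (adjusted p = 3.23e-13, edgeR). HMGCS1 had 128, 142 and 141 CPM with AKTi, against 246, 239 and 239 CPM with DMSO, a log2 change of -0.82 ± 0.06 (adjusted p = 6.28e-10, edgeR). For each of these 3 enzymes the AKTi libraries sat at about the same low level and the DMSO libraries at about the same high one.

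The enzymes from squalene onward fell less. FDFT1 had 186, 185 and 182 CPM with AKTi, against 286, 271 and 280 CPM with DMSO, a log2 change of -0.60 ± 0.05. LSS had 159, 150 and 164 CPM with AKTi, against 204, 216 and 221 CPM with DMSO, a log2 change of -0.45 ± 0.05. SQLE, which encodes a rate-limiting oxygenase of the chain, had 309, 312 and 309 CPM with AKTi, against 401, 395 and 402 CPM with DMSO. Its log2 change of -0.37 ± 0.04 was the smallest of the 8 (adjusted p = 1.74e-07, edgeR). INSIG1, the sterol sensor's anchor, had 729.9, 764 and 751 CPM with AKTi, against 1026, 965 and 1015 CPM with DMSO, a log2 change of -0.43 ± 0.04. STARD4 had 10.9, 11.7 and 11.7 CPM with AKTi, against 17.8, 17.5 and 17.5 CPM with DMSO, a log2 change of -0.63 ± 0.07 (adjusted p = 4.18e-07, edgeR). Every call for the 8 genes was also made under each of the 12 alternative settings run.

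**Figure D1:**
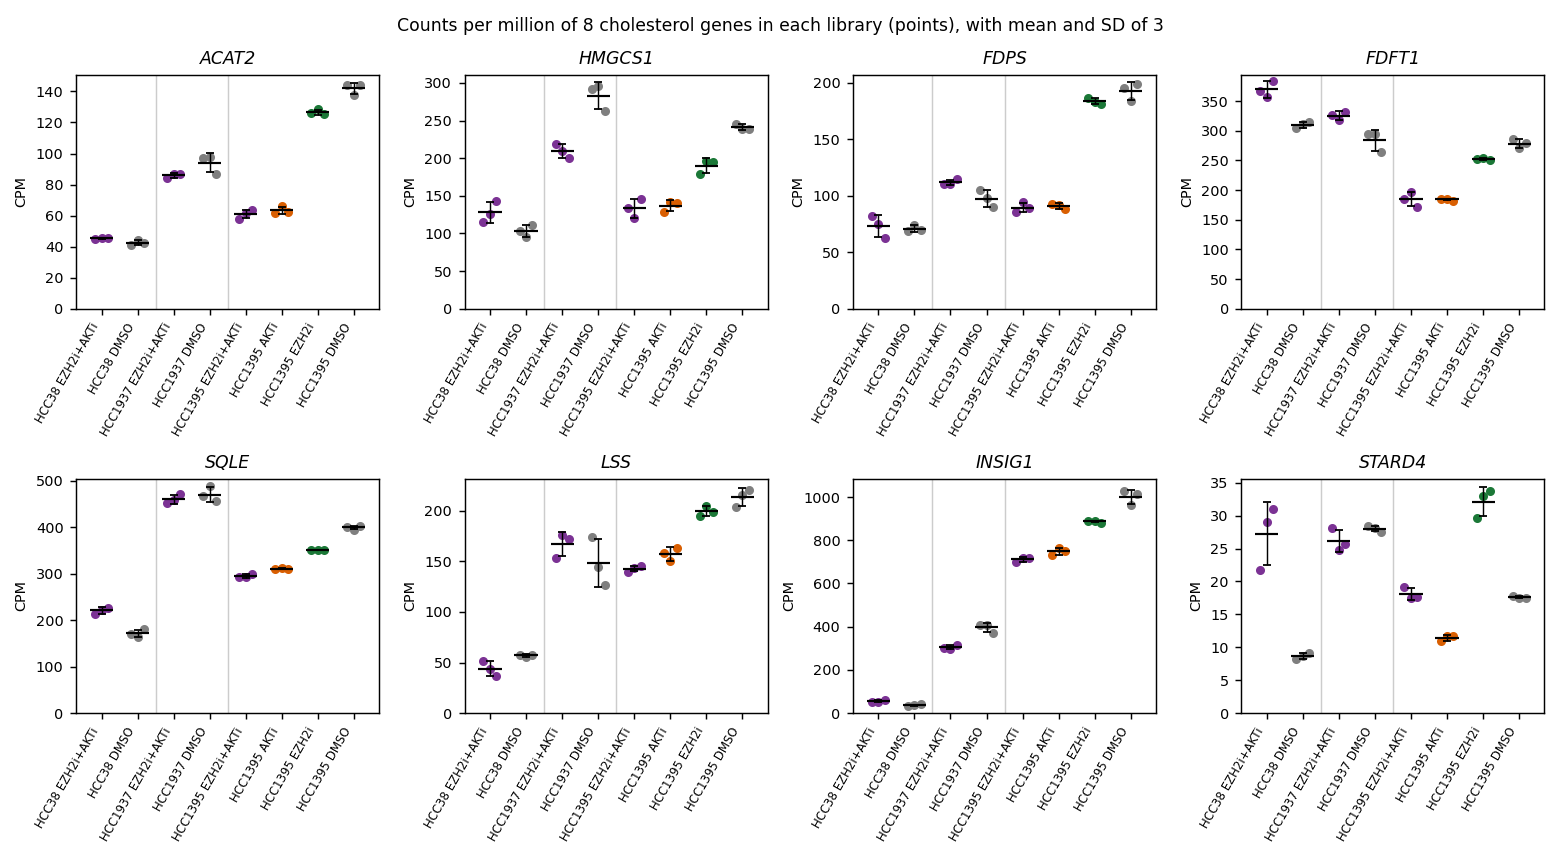
CPM (vertical axes, linear, from 0) of the 8 genes in each of the 24 libraries, 1 panel a gene, with points for libraries and bars for the mean and SD of 3. In HCC1395 all 8 genes sit lower with AKTi than with DMSO, STARD4 is highest with EZH2i at 32.1 CPM, and INSIG1 runs between 36.2 CPM in HCC38 DMSO cells and 1002 CPM in HCC1395 DMSO cells.

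EZH2i against DMSO in HCC1395 gave smaller changes for the enzymes and a rise of STARD4. STARD4 had 29.6, 33.0 and 33.7 CPM with EZH2i, against 17.8, 17.5 and 17.5 CPM with DMSO, so that the lowest EZH2i library stood above every DMSO library. Its log2 change was 0.87 ± 0.07 (adjusted p = 3.68e-09, edgeR), and STARD4-AS1 changed by -0.05 ± 0.28 (adjusted p = 0.925, edgeR). STARD4 was the 1 gene of the 8 called higher, where 18.8% of all genes tested were called higher, and 5 of the 8 were called lower, where 14.9% were. Over all genes, 3402 were called higher and 2685 lower, and with DESeq2's size factors in edgeR 3095 were higher and 3511 lower. The median log2 change of the 8 genes was -0.15, against 0.01 over all genes tested.

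HMGCS1 fell most of the 5, with 178, 196 and 195 CPM with EZH2i, against 246, 239 and 239 CPM with DMSO, a log2 change of -0.34 ± 0.06 (adjusted p = 1.8e-04, edgeR). SQLE fell by 0.18, INSIG1 by 0.17, ACAT2 by 0.16 and FDFT1 by 0.14 on the log2 scale. Their EZH2i libraries all lay under their DMSO libraries, by little. The FDFT1 call (adjusted p = 0.0308, edgeR) was lost without DMSO replicate A (adjusted p = 0.103), DMSO replicate C (0.0715), EZH2i replicate B (0.0734) or EZH2i replicate C (0.086). SOD2, which overlaps ACAT2, fell by 0.53 with EZH2i, more than ACAT2 did, and its part in the ACAT2 value was not tested. FDPS and LSS overlapped between the groups and were not called, with log2 changes of -0.06 ± 0.05 (adjusted p = 0.329, edgeR) and -0.09 ± 0.05 (adjusted p = 0.154, edgeR). LSS was called lower with DESeq2's size factors in edgeR (adjusted p = 0.0377) and with DESeq2 itself (adjusted p = 0.0313).

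Set directly against EZH2i, AKTi left all 8 genes lower, where 28.6% of all genes tested were called lower, and no AKTi library overlapped an EZH2i library for any of them. STARD4 showed the widest gap, with 10.9 to 11.7 CPM with AKTi and 29.6 to 33.7 CPM with EZH2i, a log2 change of -1.50 ± 0.07 (adjusted p = 5.11e-13, edgeR). SQLE showed the narrowest, with a log2 change of -0.19 ± 0.04 (adjusted p = 5.2e-04, edgeR).

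EZH2i+AKTi against DMSO in HCC1395 lowered 7 of the 8 genes, where 27.4% of all genes tested were called lower, and the 7 did not overlap between the groups. ACAT2 had 57.9, 61.4 and 63.3 CPM with EZH2i+AKTi, against 144, 138 and 144 CPM with DMSO, a log2 change of -1.23 ± 0.05 (adjusted p = 2.34e-14, edgeR). FDPS changed by -1.11 ± 0.05, HMGCS1 by -0.86 ± 0.06, FDFT1 by -0.60 ± 0.05, LSS by -0.59 ± 0.05, INSIG1 by -0.50 ± 0.04 and SQLE by -0.45 ± 0.04, and the largest adjusted p among these was 6.25e-09 (edgeR). STARD4 had 19.2, 17.6 and 17.6 CPM with EZH2i+AKTi, against 17.8, 17.5 and 17.5 CPM with DMSO. Its groups overlapped, and its log2 change was 0.03 ± 0.07 (adjusted p = 0.690, edgeR). That estimate turned to -0.01 without EZH2i+AKTi replicate A.

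The combination stood near AKTi alone for the enzymes. Against EZH2i, EZH2i+AKTi lowered all 8 genes, where 25.1% of all genes tested were called lower, with log2 changes between -1.07 for ACAT2 and -0.27 for SQLE. Against AKTi, STARD4 was the 1 gene of the 8 called higher, where 17% of all genes tested were called higher, with 19.2, 17.6 and 17.6 CPM with EZH2i+AKTi and 10.9, 11.7 and 11.7 CPM with AKTi. Its log2 change was 0.66 ± 0.07 (adjusted p = 5.04e-07, edgeR). LSS was the 1 gene called lower, where 18.6% were, with 140.0, 144 and 146 CPM with EZH2i+AKTi, against 159, 150 and 164 CPM with AKTi. Its log2 change of -0.14 ± 0.05 (adjusted p = 0.0261, edgeR) lost its call without AKTi replicate A (adjusted p = 0.0678), AKTi replicate C (0.135), EZH2i+AKTi replicate A (0.0864) or EZH2i+AKTi replicate B (0.0862). The other 6 genes changed by between -0.08 and 0.00 and were not called.

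A model term for the interaction asked whether the log2 change of the combination differed from the sum of the 2 single agents. None of the 8 genes was called, where 1.58% of all genes tested were called in either direction, 95 higher and 191 lower. With the size factors of DESeq2 in edgeR the balance turned, to 146 higher and 125 lower. At an unadjusted p under 0.05 edgeR gave 2 of the 8, HMGCS1 and STARD4, and the share of all genes under that threshold is not given here. DESeq2 called 1 of the 8 after adjustment, where it called 477 genes in all. HMGCS1 had a summed change of -1.17 and a change of -0.86 with the combination, an interaction of 0.30 ± 0.09 (adjusted p = 0.095, edgeR). That interaction was called with no filter on low counts (0.33, adjusted p = 0.00332), with DESeq2 (0.34, adjusted p = 0.0226) and without EZH2i+AKTi replicate B (0.45, adjusted p = 1.8e-04), the library with 120.5 CPM beside 134 and 146. STARD4 had a summed change of 0.25 and a change of 0.03 with the combination, an interaction of -0.21 ± 0.10 (adjusted p = 0.362, edgeR).

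**Figure D2:**
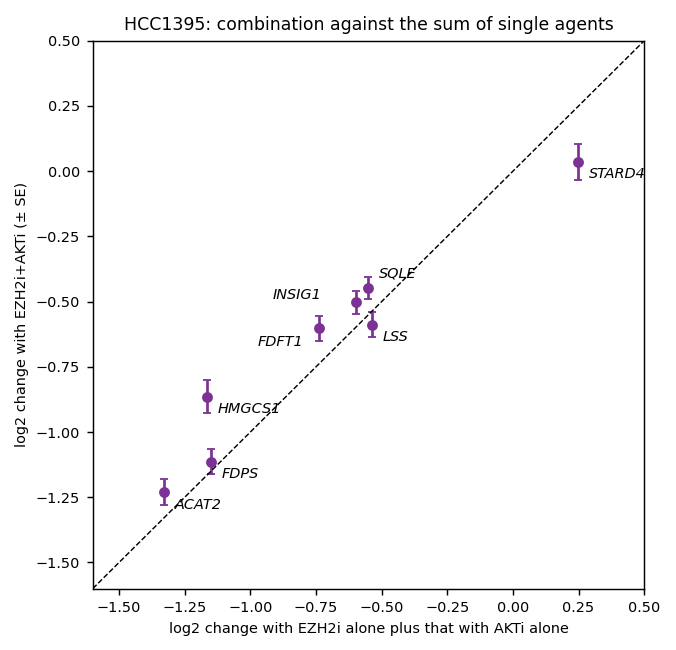
Log2 change of each of the 8 genes against DMSO in HCC1395, with EZH2i+AKTi on the vertical axis (± SE, 3 libraries in each group) and the sum of the changes with EZH2i alone and AKTi alone on the horizontal axis; the dashed line marks equality. HMGCS1 lies above the line, at -0.86 against a sum of -1.17, and STARD4 below it, at 0.03 against a sum of 0.25, and neither difference passed the adjusted test.

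EZH2i+AKTi against DMSO in HCC38 called 3 of the 8 genes higher, where 16.8% of the 17100 genes tested were called higher, and 1 lower, where 14.5% were. STARD4 had 21.8, 29.1 and 31.0 CPM with EZH2i+AKTi, against 8.24, 8.71 and 9.20 CPM with DMSO. Its log2 change was 1.61 ± 0.14 (adjusted p = 2.97e-05, edgeR), and it was called in all 12 alternative settings, replicate C left out included. INSIG1 had 49.8, 52.5 and 60.1 CPM with EZH2i+AKTi, against 33.5, 35.3 and 39.7 CPM with DMSO, a log2 change of 0.55 ± 0.11 (adjusted p = 0.00409, edgeR). Both groups of this line held less INSIG1 than any library of HCC1937 or HCC1395.

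SQLE had 213, 222 and 226 CPM with EZH2i+AKTi, against 169, 164 and 180.2 CPM with DMSO, a log2 change of 0.34 ± 0.09 (adjusted p = 0.0142, edgeR). The groups did not overlap, but the call was lost without DMSO replicate A (adjusted p = 0.0887), DMSO replicate B (0.076) or EZH2i+AKTi replicate B (0.055). LSS was the gene called lower, with 51.5, 44.0 and 36.2 CPM with EZH2i+AKTi, against 57.5, 55.5 and 57.8 CPM with DMSO. Its treated libraries were wide apart, and replicate C, with the high mitochondrial share, was the lowest. The log2 change of -0.41 ± 0.13 (adjusted p = 0.0338, edgeR) lost its call without DMSO replicate A (adjusted p = 0.0979), DMSO replicate B (0.0921), DMSO replicate C (0.0969) or EZH2i+AKTi replicate B (0.141). Without EZH2i+AKTi replicate C, LSS was still called lower, with a smaller change of -0.25.

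HMGCS1 had 115, 126 and 143 CPM with EZH2i+AKTi, against 103, 95.9 and 111 CPM with DMSO, a log2 change of 0.28 ± 0.10 (adjusted p = 0.0669, edgeR). FDFT1 had 367, 358 and 384 CPM with EZH2i+AKTi, against 305, 311 and 315 CPM with DMSO, a log2 change of 0.22 ± 0.08 (adjusted p = 0.0642, edgeR). Neither was called, although every treated library lay above every DMSO library. Both were called higher without EZH2i+AKTi replicate A (adjusted p = 0.013 for HMGCS1 and 0.0394 for FDFT1) and without replicate C (0.0293 and 0.0175), which made 5 of the 8 genes called higher in place of 3. ACAT2 changed by 0.06 ± 0.09 (adjusted p = 0.649, edgeR) with no overlap between groups, and TCP1, which overlaps it, fell by 0.41. FDPS changed by 0.02 ± 0.11 (adjusted p = 0.929, edgeR), and its treated libraries ran from 62.9 to 82.2 CPM, on both sides of the DMSO libraries.

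EZH2i+AKTi against DMSO in HCC1937 moved the 8 genes in both directions. It called 2 of the 8 higher, where 30.5% of the 17692 genes tested were called higher, and 2 lower, where 28.8% were, so the 8 genes were called no more often than genes in general. HMGCS1 had 219, 209 and 200.5 CPM with EZH2i+AKTi, against 291, 295 and 263 CPM with DMSO, a log2 change of -0.44 ± 0.06 (adjusted p = 1.59e-05, edgeR). INSIG1 had 303, 296 and 315 CPM with EZH2i+AKTi, against 409.6, 409.2 and 373 CPM with DMSO, a log2 change of -0.38 ± 0.06 (adjusted p = 3.07e-05, edgeR). Both genes stood lower in every treated library than in any DMSO library.

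FDFT1 had 327, 318 and 333 CPM with EZH2i+AKTi, against 294.0, 294.0 and 264 CPM with DMSO, a log2 change of 0.20 ± 0.06 (adjusted p = 0.00811, edgeR). The call was lost without DMSO replicate C (adjusted p = 0.0776), the lowest DMSO library for this gene, or EZH2i+AKTi replicate C (0.0531). FDPS had 111, 110.0 and 115 CPM with EZH2i+AKTi, against 105, 97.6 and 89.8 CPM with DMSO, a log2 change of 0.20 ± 0.06 (adjusted p = 0.0128, edgeR). The call was lost without DMSO replicate B (adjusted p = 0.0502), DMSO replicate C (0.102) or EZH2i+AKTi replicate C (0.0826). SQLE changed by -0.03 ± 0.05, STARD4 by -0.10 ± 0.07, ACAT2 by -0.13 ± 0.06 and LSS by 0.17 ± 0.11, and none of these 4 was called. STARD4, the gene that moved most in HCC38, had 28.1, 24.8 and 25.7 CPM with EZH2i+AKTi, against 28.4, 28.2 and 27.6 CPM with DMSO. LSS was called higher without DMSO replicate A (0.29, adjusted p = 0.00281), which held 174 CPM beside 144 and 127, and ACAT2 was called lower without DMSO replicate C (-0.19, adjusted p = 0.0241).

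**Figure D3:**
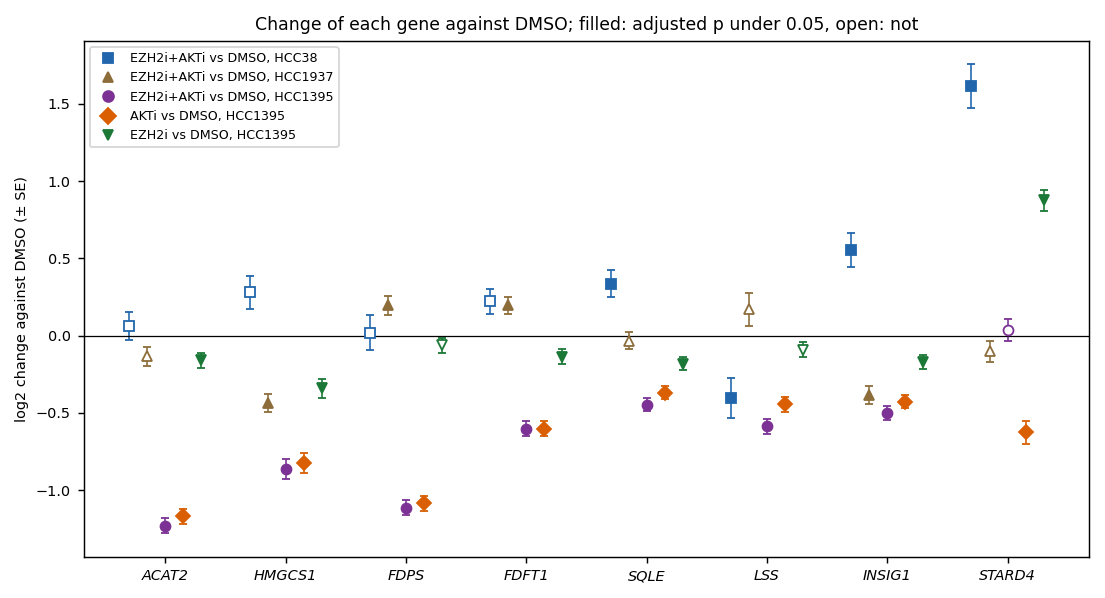
Log2 change against DMSO (vertical axis, ± SE, 3 libraries in each group) of the 8 genes in 5 comparisons, with filled symbols where the adjusted p was under 0.05. In HCC1395, AKTi lies at or under -0.37 for all 8 genes, and EZH2i+AKTi in HCC38 puts STARD4 at 1.61.

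The difference between lines in the response to EZH2i+AKTi was tested in 1 fit of all 24 libraries. In HCC38 the response was higher than in HCC1395 for 7 of the 8 genes, where 17.4% of the 20697 genes tested were called higher. The differences ran from 0.81 ± 0.07 for SQLE to 1.60 ± 0.14 for STARD4, and ACAT2, which barely moved in HCC38, differed by 1.31 ± 0.09 (adjusted p = 1.1e-12, edgeR). LSS was the exception, with a difference of 0.20 ± 0.13 (adjusted p = 0.261, edgeR), called at 0.32 without HCC38 EZH2i+AKTi replicate C (adjusted p = 0.0335).

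In HCC1937 the response was higher than in HCC1395 for 6 of the 8 genes, where 11.3% of all genes tested were called higher. FDPS differed most, by 1.30 ± 0.10 (adjusted p = 6.17e-11, edgeR), and SQLE least of the 6, by 0.41 ± 0.07. INSIG1 differed by 0.11 ± 0.09 (adjusted p = 0.434, edgeR) and STARD4 by -0.14 ± 0.13 (adjusted p = 0.497, edgeR). Between HCC38 and HCC1937, the response in HCC38 was higher for 5 of the 8, where 17.7% were called higher, and lower for LSS alone, where 14.3% were. STARD4 differed by 1.75 ± 0.13, INSIG1 by 0.96 ± 0.10, HMGCS1 by 0.74 ± 0.11 and LSS by -0.55 ± 0.13. The ACAT2 difference of 0.22 ± 0.09 (adjusted p = 0.0449, edgeR) was lost with DESeq2's size factors (adjusted p = 0.0655), with no filter (0.17) and with the stricter filter (0.0612). It was also lost when any of 8 libraries was left out in turn, namely HCC38 DMSO replicates A and C, HCC38 EZH2i+AKTi replicate B, HCC1937 DMSO replicates A and B, and the 3 HCC1937 EZH2i+AKTi replicates, with adjusted p between 0.0655 and 0.119. Over the 3 lines, 0 of the 8 genes had a combination change of the same sign throughout. Some of these signs rest on changes that were not called, such as 0.06 for ACAT2 in HCC38, 0.17 for LSS in HCC1937 and -0.10 for STARD4 in HCC1937. The share of all genes with mixed signs was not counted.

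For 6 of the 8 genes, all but FDFT1 and STARD4, levels under DMSO differed between HCC38 and HCC1395 by more than any treatment moved them. HCC38 was lower than HCC1395 for 7 of the 8 genes, where 36.5% of all genes tested were called lower, and higher for FDFT1 alone, where 38.2% were called higher. INSIG1 averaged 36.2 ± 3.2 CPM in HCC38 and 1002 ± 33 CPM in HCC1395 (SD), a log2 difference of -4.79 ± 0.08 (adjusted p = 1.26e-28, edgeR). LSS averaged 57.0 ± 1.3 CPM in HCC38 and 213 ± 9 CPM in HCC1395, a log2 difference of -1.91 ± 0.10. FDFT1 averaged 310.4 ± 5.1 CPM in HCC38 and 279 ± 8 CPM in HCC1395, a log2 difference of 0.16 ± 0.06 (adjusted p = 0.0166, edgeR) that was lost without HCC38 DMSO replicate C (adjusted p = 0.0577) or HCC1395 DMSO replicate B (0.079).

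HCC1937 was higher than HCC1395 for STARD4, SQLE and HMGCS1, 3 of the 8, where 37.3% were called higher, and lower for INSIG1, FDPS, ACAT2 and LSS, 4 of the 8, where 35.7% were called lower. These shares lie near those of all genes. HCC38 was lower than HCC1937 for 7 of the 8, where 36.2% were called lower, led by INSIG1 at -3.46 ± 0.07, and higher for FDFT1, where 35.6% were called higher. That FDFT1 difference of 0.13 ± 0.06 (adjusted p = 0.0478, edgeR) was lost without any 1 of the 3 HCC38 DMSO replicates or without HCC1937 DMSO replicate B or C, with adjusted p between 0.0505 and 0.305. Line and plate or day of harvest cannot be told apart in these differences.

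Ordered by mean level over the 8 groups, INSIG1 took 8 separate levels between HCC38 DMSO and HCC1395 DMSO, 27.7-fold apart at the ends, with no overlap between neighbouring groups. STARD4 followed another order, lowest in HCC38 DMSO at 8.72 ± 0.48 CPM and highest in HCC1395 EZH2i at 32.1 ± 2.2 CPM (SD). HCC1937 EZH2i+AKTi, HCC38 EZH2i+AKTi and HCC1937 DMSO, at 26.2, 27.3 and 28.1 CPM, overlapped as neighbours in that order, as did HCC1395 EZH2i+AKTi and HCC1395 DMSO. FDFT1 varied least, 2.01-fold, and was highest in HCC38 EZH2i+AKTi at 369.8 ± 13.6 CPM. HMGCS1, FDPS, SQLE and ACAT2 varied 2.71 to 3.33-fold and LSS 4.86-fold, and 1 to 4 pairs of neighbours overlapped for each of these genes. Per kilobase of merged exons, INSIG1 was the highest of the 8 genes in HCC1395 DMSO cells at 274.5 CPM per kb, SQLE in HCC1937 DMSO cells at 109 and FDFT1 in HCC38 DMSO cells at 59.7, while STARD4 was the lowest of the 8 in every group, at 1.53 to 5.65.

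Of 16 other enzymes of the chain, 13 were lower and 1 higher with AKTi than with DMSO in HCC1395, 14 were lower and 1 higher with EZH2i+AKTi, and 3 were lower and 1 higher with EZH2i. Over all genes tested, 22.6% were lower and 27.1% higher with AKTi, 27.4% and 32.5% with EZH2i+AKTi, and 14.9% and 18.8% with EZH2i. The EZH2i count lay near the share of all genes called lower and ran from 1 to 5 lower over the alternatives. The median log2 changes of the 16 were -0.54 with AKTi, -0.46 with EZH2i+AKTi and -0.02 with EZH2i, against 0.06, 0.07 and 0.01 over all genes tested. With AKTi, EBP, a sterol isomerase, changed by -1.05 ± 0.07, DHCR7, which makes cholesterol in the last step of one branch, by -0.67 ± 0.05, and IDI1, the isopentenyl diphosphate isomerase, by -0.64 ± 0.05. In HCC38, EZH2i+AKTi raised 5 of the 16 and lowered 1, with MSMO1, a sterol demethylating oxidase, at 0.80 ± 0.11, SC5D, a sterol desaturase, at 0.75 ± 0.14 and IDI1 at 0.49 ± 0.13. The median there was 0.14, against -0.01 over all genes tested. Over all genes tested in HCC38, 16.8% were higher and 14.5% lower. Without HCC38 EZH2i+AKTi replicate C, 7 of the 16 were higher and 1 lower, and over all alternatives the count ran from 2 to 7 higher and from 0 to 4 lower. In HCC1937, EZH2i+AKTi raised 3 of the 16 and lowered 5, where 30.5% of all genes tested were higher and 28.8% lower. The median there was -0.02, against 0.03 over all genes tested. LBR, a sterol reductase of the nuclear envelope, changed by -0.74 ± 0.07 in HCC1937 and MSMO1 by 0.31 ± 0.06.

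Of 6 sterol-sensing genes, 3 were higher and 2 lower with AKTi, and likewise with EZH2i+AKTi, in HCC1395, and 1 was higher and 1 lower with EZH2i. The shares over all genes in HCC1395 were 27.1% higher and 22.6% lower with AKTi, 32.5% and 27.4% with EZH2i+AKTi, and 18.8% and 14.9% with EZH2i. MBTPS1, the first protease to cut SREBPs, changed by 0.49 ± 0.04 with AKTi, and SREBF1, which encodes SREBP-1, changed by -0.21 ± 0.05 with AKTi and by 0.33 ± 0.05 with EZH2i. In HCC38, EZH2i+AKTi raised 2 and lowered none: INSIG2, the second anchor of SCAP, at 0.93 ± 0.12 and SREBF2, which encodes SREBP-2, at 0.39 ± 0.09. Over the alternatives, 1 to 3 of the 6 were higher and 0 to 2 lower in HCC38. In HCC1937, EZH2i+AKTi raised 3 and lowered 3, with SREBF2 at 0.29 ± 0.05 and SREBF1 at -0.44 ± 0.06. Over all genes tested, 16.8% were higher and 14.5% lower in HCC38, and 30.5% and 28.8% in HCC1937. The median of the 6 was 0.05 with AKTi in HCC1395, 0.15 in HCC38 and -0.01 in HCC1937, against 0.06, -0.01 and 0.03 over all genes tested.

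Of 11 uptake and trafficking genes, 2 were higher and 5 lower with AKTi in HCC1395, 1 higher and 6 lower with EZH2i+AKTi, and 1 higher and 2 lower with EZH2i. EZH2i+AKTi gave 3 higher and 1 lower in HCC38 (3 and 2 without EZH2i+AKTi replicate C, and 2 to 5 higher and 1 to 2 lower over the alternatives), and 3 higher and 4 lower in HCC1937. The HCC1937 counts lie near the 30.5% higher and 28.8% lower of all genes. In HCC1395, 27.1% of all genes were higher and 22.6% lower with AKTi, 32.5% and 27.4% with EZH2i+AKTi, and 18.8% and 14.9% with EZH2i. In HCC38, 16.8% were higher and 14.5% lower. The median of the 11 was -0.03 with AKTi and -0.19 with EZH2i+AKTi in HCC1395, against 0.06 and 0.07 over all genes tested. SCARB1, a receptor for high-density lipoprotein, was lower with EZH2i+AKTi in all 3 lines, with log2 changes of -0.92 ± 0.10 in HCC38, -0.95 ± 0.06 in HCC1937 and -0.89 ± 0.05 in HCC1395. NPC2, which binds cholesterol in lysosomes, was higher with EZH2i+AKTi in HCC1395, at 1.43 ± 0.07, and in HCC1937, at 0.40 ± 0.06.

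Of 6 liver X receptor and efflux genes, which act when sterols are in excess, 5 were higher and 1 lower with AKTi and with EZH2i+AKTi in HCC1395, and 2 were higher with EZH2i. Over all genes tested, 27.1% were higher with AKTi, 32.5% with EZH2i+AKTi and 18.8% with EZH2i. ABCA1, an exporter of cholesterol, had 18.3 ± 1.7 CPM with AKTi and 6.07 ± 0.31 CPM with DMSO (SD), a log2 change of 1.58 ± 0.11 (adjusted p = 3.21e-10, edgeR). ABCG1, another exporter, changed by 2.25 ± 0.24 with AKTi, 2.96 ± 0.23 with EZH2i+AKTi and 1.43 ± 0.26 with EZH2i in HCC1395. With EZH2i+AKTi, ABCG1 was also higher in HCC1937, at 2.77 ± 0.22. In HCC38 it stayed under 1 CPM, with 0.566 CPM with EZH2i+AKTi and 0.243 CPM with DMSO, a log2 change of 1.19 ± 0.40 (adjusted p = 0.0452, edgeR). MYLIP, an E3 ligase that degrades lipoprotein receptors, changed by 0.80 ± 0.09 with AKTi in HCC1395 and by 1.03 ± 0.07 with EZH2i+AKTi in HCC1937. With EZH2i+AKTi the list gave 1 higher and none lower in HCC38, where 16.8% of all genes were higher and 14.5% lower. Without EZH2i+AKTi replicate C it gave 1 and 1 there, and over the alternatives 0 to 2 higher. In HCC1937 it gave 4 higher and 1 lower, where 30.5% of all genes were higher and 28.8% lower. The median of the 6 was 0.66 with AKTi in HCC1395, -0.09 in HCC38 and 0.49 in HCC1937, against 0.06, -0.01 and 0.03 over all genes tested.

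**Figure D4:**
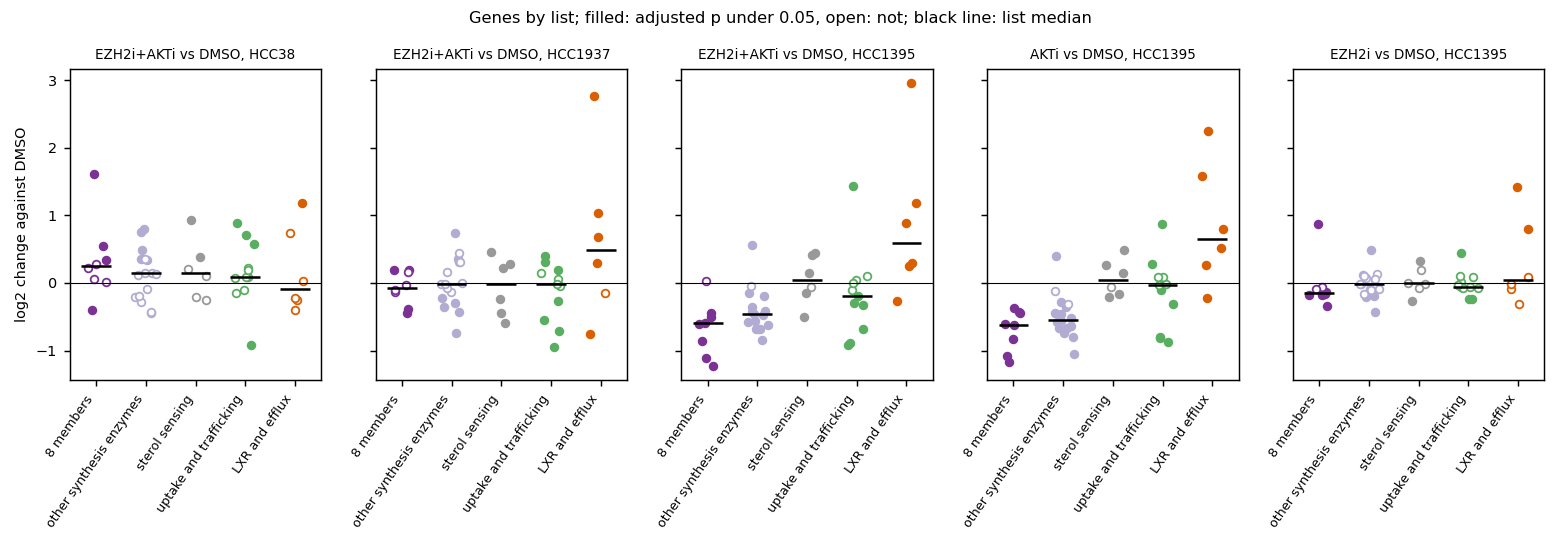
Log2 change against DMSO (vertical axis) of the genes of 5 lists in 5 comparisons, 1 panel a comparison, with filled points where the adjusted p was under 0.05 and a black line at the list's median. The 16 other synthesis enzymes lie mostly below 0 with AKTi in HCC1395, at a median of -0.54, while the 6 liver X receptor and efflux genes have a median of 0.66 there.

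The genes whose 5 changes against DMSO lay closest to the mean of the 8 genes were ranked by the root mean square difference over those 5 comparisons, among 12569 genes. The mean of the 8 was -0.03 with EZH2i, -0.69 with AKTi and -0.66 with EZH2i+AKTi in HCC1395, 0.33 with EZH2i+AKTi in HCC38 and -0.07 in HCC1937. PHTF2 was closest, at 0.07, followed by SLC36A4 at 0.07, IDI1 at 0.08, LIN52 at 0.10, DHCR7 at 0.10 and PTPDC1 at 0.10. IDI1 and DHCR7 are enzymes of the chain. Of the 8 genes themselves, FDFT1 lay closest to their mean, at 0.14 and rank 13, and STARD4 farthest, at 0.77 and rank 9590. FDPS, ACAT2 and LSS ranked 856, 1403 and 1549. STARD4 lay above the mean of the 8 at 0.87 with EZH2i in HCC1395 and at 1.61 in HCC38. The medians of the 8 in those comparisons were -0.15 and 0.25. The 5 comparisons share control libraries within HCC1395, so this ranking is a description.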

How the data were processed

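Raw counts per gene, 1 file a library, were used as the authors deposited them. Alignment used HISAT2 2.0.5 on hg38, per the submitters' processing notes; the counting tool is not given in the sources used here, nor is its strand setting. The 24 columns of the series' own normalised tables were not used. Counts were fitted with edgeR 4.0.16 (R 4.3.3; TMM scaling, filterByExpr with a minimum count of 10, robust quasi-likelihood F-test, two-sided) in 1 fit for each line and 1 fit of all 24 libraries for differences between lines. The p-values were adjusted by Benjamini-Hochberg over all genes tested and called under 0.05. Standard errors are the log2 change over the root of F. CPM are on the scale of the fit of all libraries. All 8 genes passed the filter in every fit. The 8 genes, the other lists and the tests were chosen with earlier results of these data known. Genes outside the 8 were named by rule: at most the 4 with the smallest p for each list and comparison, and the 6 closest in profile among genes that averaged 2 CPM or more; the marker genes and overlapping genes are named besides. Alternatives were DESeq2's size factors in edgeR, DESeq2 1.42.0, no filter, a stricter filter of 1 CPM in 3 libraries, a fit of the compared groups alone, the joint fit, a replicate block and each library left out. Counts of the other lists without HCC38 EZH2i+AKTi replicate C were added after seeing the data. Scripts were tested on simulated data. The libraries of a group differed from each other beyond counting noise (chi-square per degree of freedom from 2.56 to 88.2, the highest between HCC38 EZH2i+AKTi replicates A and C). RNA from fewer cells and less RNA per cell cannot be told apart in bulk libraries.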

Additional observations from a re-analysis of the deposited data

Results flagged for a closer look

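The response to EZH2i+AKTi differed between lines for 19 pairs of gene and lines, each by edgeR's test of the difference itself (log2, first line minus second). For HCC38 minus HCC1395 the differences were 1.31 for ACAT2, 1.17 for HMGCS1, 1.15 for FDPS, 0.85 for FDFT1, 0.81 for SQLE, 1.08 for INSIG1 and 1.60 for STARD4. For HCC1937 minus HCC1395 they were 1.09 for ACAT2, 0.42 for HMGCS1, 1.30 for FDPS, 0.79 for FDFT1, 0.41 for SQLE and 0.75 for LSS. For HCC38 minus HCC1937 they were 0.22 for ACAT2, 0.74 for HMGCS1, 0.40 for SQLE, -0.55 for LSS, 0.96 for INSIG1 and 1.75 for STARD4. The mitochondrial share, which moved with treatment in HCC1395 and HCC1937, was not tested for its part in these differences.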

How the results depend on the processing

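Over the 8 genes and 15 comparisons, 1496 of the single-gene values under an alternative kept their direction and their side of the threshold, 47 lost the call, 19 gained it and 14 changed sign, all 14 for changes that were not called. STARD4 with EZH2i+AKTi against DMSO in HCC1395 was -0.005 with DESeq2's size factors and with DESeq2, and ran from -0.015 (without EZH2i+AKTi replicate A) to 0.054 with a library left out. Against AKTi, with a library left out, EZH2i+AKTi gave -0.106 to 0.058 for HMGCS1 (above 0 without EZH2i+AKTi replicate B), -0.048 to 0.004 for FDPS (above 0 without EZH2i+AKTi replicate A) and -0.015 to 0.05 for FDFT1 (below 0 without AKTi replicate C or EZH2i+AKTi replicate A or B). The LSS interaction ran from -0.081 to 0.029, above 0 without EZH2i replicate A or EZH2i+AKTi replicate B. FDPS in HCC38 ran from -0.056 to 0.154, below 0 without EZH2i+AKTi replicate A, DMSO replicate A or DMSO replicate C, and SQLE in HCC1937 was 0.004 with the stricter filter. Of the 8 genes, those called higher in HCC38 numbered 5 with the stricter filter and 5 in the joint fit, against 3, and 2 to 5 with a library left out. Those called lower there numbered 0 with the stricter filter and 0 to 1 with a library left out. LSS was not lower with EZH2i+AKTi than with AKTi by the threshold with no filter or in the fit of the 2 groups (0 of 8 each), and 0 to 1 genes were with a library left out. HMGCS1 made the interaction count 1 with no filter and 1 with DESeq2, and 0 to 1 with a library left out. Under DMSO, FDFT1 was not called higher in HCC38 than in HCC1395 or HCC1937 with no filter (0 each), and 0 to 1 genes were with a library left out. Over all genes tested, the interaction called 286 genes, 477 with DESeq2 and 127 to 1022 with a library left out (630 without EZH2i+AKTi replicate B, 1022 without replicate C), and the HCC38 comparison called 5362 genes and 3114 to 6715 with a library left out (3114 without DMSO replicate B). The HCC1937 count of genes called higher was 0 to 3 with a library left out. Replicate letters did not pair the libraries: same-letter deviations correlated at -0.249 to 0.325 in HCC1395, -0.219 to 0.281 in HCC38 and -0.481 to -0.178 in HCC1937. With the replicate block, 1 gene in place of 2 was called higher in HCC1937 (FDPS was not), 0 in place of 1 were called higher under DMSO in HCC38 against each other line, and the ACAT2 difference between HCC38 and HCC1937 was not called. The cause was not tested for any of these changes.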
